A study of Drosophila melanogaster with 4 samples.

Results

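MED1, Asx and pps encode nuclear proteins that act on chromatin or transcription. They were followed by their FlyBase identifiers, FBgn0037109 for MED1, FBgn0261823 for Asx and FBgn0082831 for pps, and make up 3 of the 2860 genes listed in each table. Identifiers were paired with symbols through a RefSeq gene table, which named 18 of the 2860 genes, among them these 3. The ovaries came from Drosophila melanogaster flies of the W1118 strain, either wild-type or NSUN2 KO, the latter lacking NSUN2, an RNA methyltransferase that makes methylated cytosine (m5C). Each genotype gave 1 library of ribosome footprints and 1 library of poly(A) mRNA. The labels do not give the knockout allele, the flies' age or the number of flies per library, and with 1 library per group a difference between the genotypes cannot be set against the spread of replicates. Of the 202 symbols in the pathway and cell type lists drawn up for this work, 3 were paired with a listed gene, and these were the members themselves, so the ovary label could not be checked against marker genes.

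MED1 is a subunit of Mediator, the large complex that carries signals from DNA-bound transcription factors to RNA polymerase II. Asx (Additional sex combs) belongs to the Polycomb group, which keeps developmental genes silent, and its product is the partner that the deubiquitinase Calypso needs to remove ubiquitin from histones. The pps product (protein partner of snf) is a nuclear protein that binds the spliceosomal protein Snf and takes part in the female-specific splicing of Sex-lethal, the switch gene of sex determination in the fly. In the ovary, germline and follicle cells both depend on regulated transcription, and whole-ovary libraries mix them. In such bulk samples, fewer cells of a type and less RNA per cell cannot be told apart.

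Footprints are the stretches of mRNA, selected here at 28 to 30 nt, that stay covered by a ribosome while nuclease digests the rest. The footprint value divided by the mRNA value of a gene is its translation efficiency. All values below are the deposited ones, a signal that the authors had scaled by library depth and by the length of each gene, so levels of different genes can be set side by side. The number of reads behind each value was recovered from the values and, given the constants described with the processing, is a lower limit for genes whose length rests on no further rule. Over the genes with recovered reads, the mRNA libraries held at least 3262599 wild-type reads and 8391446 knockout reads, if a length rule given below holds. That rule raised the mRNA reads of 382 genes. The footprint libraries held at least 1100705 and 2111200. With the constants used to recover them, the knockout reads were 2.57 times the wild-type reads in mRNA and 1.92 times in footprints. A constant wrong by a whole factor would change these ratios, the reads and the intervals. After each gene's common factor was divided out, 34.5% of wild-type and 32.6% of knockout footprint reads were even numbers, and 31.6% and 33.8% of mRNA reads, beside the 33.3% expected of pairs of whole numbers without a common factor. The constants were chosen to leave the smallest whole numbers, so these shares are no independent check of them. Each interval below is a 95% counting interval, which covers counting error only and neither the spread between flies nor that between library preparations.

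MED1 had the most mRNA of the 3 genes. Its mRNA value was 31.4 in wild type (29.9 to 32.9, from 1764 reads) and 35.5 in the knockout (34.5 to 36.4, from 5148 reads). These levels lay near the middle of the table, where 46.7% of listed genes had a lower wild-type value and 52.0% a lower knockout value. Its footprint value was 26.0 in wild type (23.3 to 28.9, from at least 340 reads) and 21.7 in the knockout (19.9 to 23.5, from at least 571 reads). MED1 was therefore higher in the knockout in mRNA and lower in footprints. The counting intervals of the genotypes overlapped at their ends in footprints. In mRNA they did not, but those reads rest on a rule about gene length given below, without which the reads were 294 and 858 and the intervals, 27.9 to 35.2 and 33.1 to 37.9, overlapped.

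For pps, the mRNA value was 17.4 in wild type (16.5 to 18.3, from at least 1324 reads) and 20.8 in the knockout (20.1 to 21.4, from at least 4083 reads). Its footprint value was 26.0 in wild type (23.7 to 28.5, from at least 465 reads) and 26.3 in the knockout (24.7 to 28.1, from at least 949 reads). The knockout thus had the higher pps mRNA value by more than counting error, while the footprint values lay within each other's intervals. Placed among all listed genes, pps was low in mRNA, where 23.7% of genes had a lower wild-type value and 29.6% a lower knockout value. In footprints it stood near the middle, with 46.0% and 48.5% of genes lower.

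Asx was the least occupied by ribosomes. Its mRNA value was 18.6 in wild type (17.6 to 19.6, from at least 1434 reads) and 14.2 in the knockout (13.7 to 14.8, from at least 2838 reads). Its footprint value was 7.09 in wild type (4.39 to 10.8, from at least 21 reads) and 5.20 in the knockout (3.53 to 7.38, from at least 31 reads). The knockout value was the lower one in both assays, outside the wild-type interval in mRNA and inside it in footprints. In the knockout, 9.93% of listed genes had a lower footprint value than Asx and 17.4% a lower mRNA value.

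**Figure D1:**
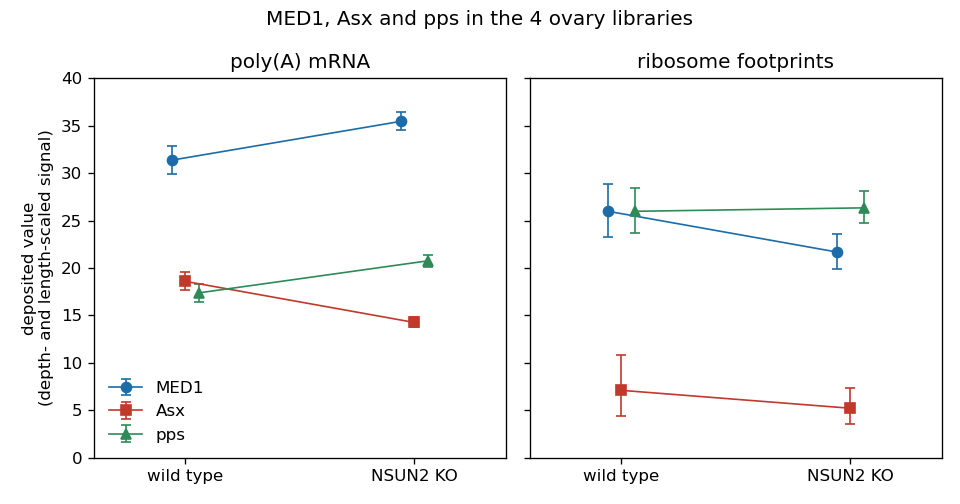
Deposited values (depth- and length-scaled signal, linear axis from 0) of MED1, Asx and pps in wild-type and NSUN2 KO ovaries, for mRNA on the left and ribosome footprints on the right. Each point is 1 library, bars are 95% counting intervals, and lines join the genotypes; the lines of Asx and pps cross in mRNA, and that of MED1 falls away from pps in footprints, from 26.0 to 21.7.

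The order of the genes differed between assays and genotypes. In wild-type mRNA, MED1 stood 1.69 times as high as Asx (1.57 to 1.81) and 1.81 times as high as pps (1.68 to 1.94). With the 294 wild-type MED1 reads found without the length rule, these intervals were 1.48 to 1.92 and 1.59 to 2.05. Asx and pps did not differ there beyond counting error, with a ratio of pps over Asx of 0.935 (0.867 to 1.01). In knockout mRNA, MED1 was again first, and pps was 1.46 times as high as Asx (1.39 to 1.53). In wild-type footprints, MED1 and pps were level, at a ratio of 1.00 (0.867 to 1.15), and pps was 3.66 times as high as Asx (2.37 to 5.98). In knockout footprints, MED1 over pps was 0.823 (0.741 to 0.914), so pps came first, MED1 second and Asx last.

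The values also hold the gene lengths by which they were scaled. The footprint length of MED1 came out as 1475 units and that of pps as 2018, which on the assumption that the unit is the codon are coding lengths of 4425 and 6054 nt. The exon lengths behind the mRNA values were 4962 nt for MED1, 6724 nt for pps and 6809 nt for Asx, which leaves 537 nt of MED1 and 670 nt of pps outside the coding part. All are the smallest lengths that fit the values. The MED1 exon length, and with it the 1764 and 5148 reads given above, also rests on the rule that it is not shorter than the coding length. For Asx the footprint values fix the length only up to a whole factor, from 334 codons up to 2004 codons, the most that an exon length of 6809 nt allows. At 334 codons, 5807 nt of the Asx exon length would lie outside the coding part, far more than in MED1 and pps. At 2004 codons the Asx footprint reads would be 126 and 186, called its larger reads here. A longer exon length would allow more. By these lengths MED1 and pps are long genes for this table, where the median recovered coding length was 590 codons. Of genes with a recovered coding length, 89.4% were shorter than MED1 and 95.03% shorter than pps. The lengths of the other genes are also the smallest that fit, so the median may be too low and these shares too high. Wild-type footprint reads per 100 codons were 23.05 for MED1 and 23.04 for pps, and in the knockout 38.7 and 47.03. These reads are not scaled for depth, and the knockout footprint reads were 1.92 times the wild-type reads in all. They therefore compare the genes within a library and not the genotypes.

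Whether the messages of these genes differed in abundance without NSUN2 was read from the mRNA libraries. Asx was 1.30-fold lower in the knockout (1.22 to 1.39), pps 1.19-fold higher (1.12 to 1.27) and MED1 1.13-fold higher (1.07 to 1.19). With the smallest MED1 reads, a setting added after seeing the data, its interval ran from 0.989 to 1.295 and held equality. None of the 3 was 2-fold apart, a size that 1.72% of 2856 genes with a mean mRNA value of at least 1 reached upward and 1.61% downward, 3.33% in all. Counting intervals that exclude equality were common, with 35.7% above it and 34.8% below among the 2603 of these genes with recovered reads. Most of these genes thus share such an exclusion, and it sets none of the 3 members apart. On the log2(value + 0.1) scale, the mRNA differences were -0.38 for Asx, 0.18 for MED1 and 0.26 for pps, beside a median of 0.00 and an SD of 0.44 over genes. Of the 2856 genes, 12.4% had a lower mRNA difference than Asx, while 72.7% lay below MED1 and 79.7% below pps. Set against each other, the differences of pps and Asx were 0.64 apart on the log2 scale without a pseudocount (0.51 to 0.77), and those of MED1 and Asx 0.56 apart (0.44 to 0.68). MED1 and pps were 0.08 apart, with an interval for MED1 minus pps from -0.20 to 0.04. With the smallest MED1 reads, the intervals were 0.35 to 0.77 for MED1 minus Asx and -0.29 to 0.13 for MED1 minus pps. These distances between genes do not depend on how the libraries are scaled.

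The footprint libraries were compared in the same way, to ask whether ribosome occupancy differed. MED1 was 1.20-fold lower in the knockout (1.04 to 1.37). The ratio of knockout over wild type for pps was 1.01 (0.907 to 1.14). Asx was 1.36-fold lower with its smallest possible reads, and the ratio of knockout over wild type, 0.733, had an interval from 0.408 to 1.34. With the larger reads, a choice made after seeing the data, that interval ran from 0.582 to 0.927 and excluded equality, so the call on Asx depends on a number that the values do not fix. No member was 2-fold apart in footprints, against 1.96% of 2851 genes with a mean footprint value of at least 1 that were higher by this size and 5.4% that were lower, 7.37% in all. Counting intervals lay below equality in 29.0% and above it in 22.2% of the 2788 of these genes with recovered reads. On the log2(value + 0.1) scale, the footprint differences were -0.26 for MED1, -0.44 for Asx and 0.02 for pps, beside a median of -0.06 and an SD of 0.56 over genes. With each library divided by the sum of its listed genes, that of pps changed sign to -0.06. MED1 and pps, level in wild-type footprints, were 0.28 apart in their log2 footprint difference without a pseudocount, with an interval for MED1 minus pps from -0.53 to -0.03. The interval of pps minus Asx held 0 with the smallest Asx reads (-0.35 to 1.28) and excluded it with the larger (0.10 to 0.83).

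**Figure D2:**
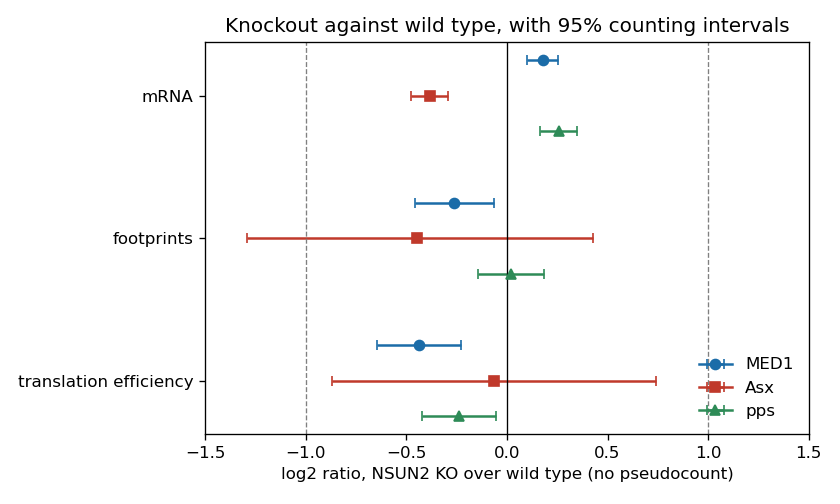
Log2 ratio of NSUN2 KO over wild type without a pseudocount (horizontal axis) for mRNA, footprints and translation efficiency, with 95% counting intervals, 1 library per group. Dashed lines mark a 2-fold difference, no member reaches them, and the wide intervals of Asx in footprints and translation efficiency rest on its smallest possible reads, 21 and 31.

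Each member combined its mRNA and footprint differences in its own way. MED1 was higher in mRNA and lower in footprints, a combination seen in 24.8% of the 2848 genes that passed the minimum in both assays. Asx was lower in both, as were 30.2% of genes. The values of pps were higher in both, as were 25.6% of genes, though its footprint difference was within counting error. These combinations are all frequent in the table, and none sets a member apart from the other listed genes.

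**Figure D3:**
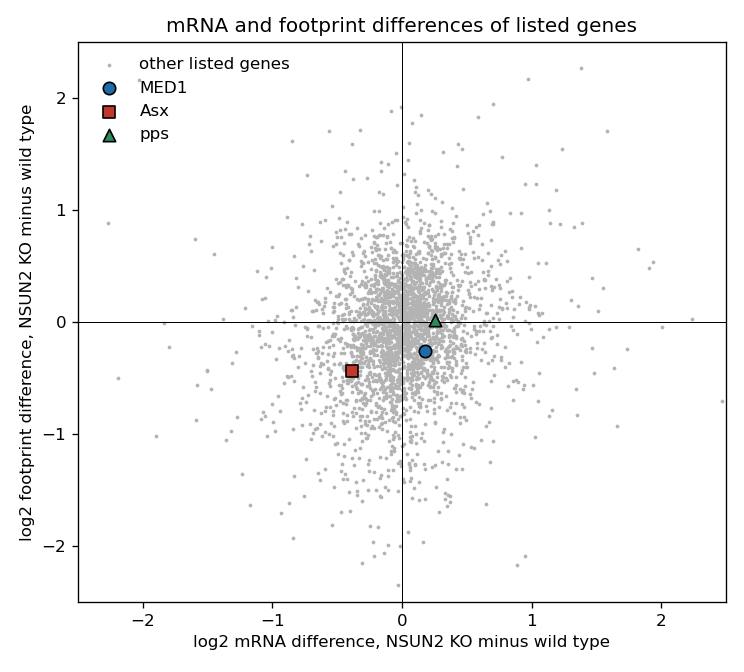
Log2 mRNA difference (horizontal axis) against log2 footprint difference (vertical axis), NSUN2 KO minus wild type on the log2(value + 0.1) scale, for 2848 genes; 9 genes lie beyond the axes at 2.5. MED1, Asx and pps fall inside the main cloud, at mRNA differences of 0.18, -0.38 and 0.26.

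Within each genotype, the 3 genes spread over the range of translation efficiency. In wild type, pps had a footprint over mRNA ratio of 1.495 (1.35 to 1.66) and ranked 922 from the highest of 2848 genes. MED1 had a ratio of 0.828 (0.738 to 0.930) and ranked 1506, and Asx had 0.381 (0.248 to 0.587) and ranked 2230. The median ratio over all genes was 0.899, so pps lay above it, Asx below it, and the interval of MED1 held it. In the knockout, pps had a ratio of 1.27 (1.18 to 1.36) and ranked 1051, MED1 had 0.611 (0.561 to 0.667) and ranked 1783, and Asx had 0.365 (0.256 to 0.520) and ranked 2219. The order of pps, MED1 and Asx was the same in both genotypes. The knockout median was 0.885, and the MED1 interval lay below it.

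In percent of genes with a lower translation efficiency, MED1 went from 47.1% in wild type to 37.4% in the knockout. The ends of its counting intervals correspond to 42.8% and 51.2% in wild type and to 34.4% and 40.1% in the knockout, so the ranges did not overlap. With the smallest MED1 mRNA reads they were 41.7% to 52.8% and 33.7% to 40.8%. MED1 moved down by 277 places, and 28.7% of genes moved further in either direction. For pps the share went from 67.6% to 63.1%, a move of 129 places, less than the median move of 161 places over all genes. Asx had 21.7% and 22.1%, 11 places apart. With its smallest possible footprint reads, its counting ranges reached from rank 1869 to 2504 in wild type and from 1950 to 2457 in the knockout. On those reads, the place of Asx is known only within these ranges. The larger Asx reads would narrow the ranges, which were not recomputed with them.

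**Figure D4:**
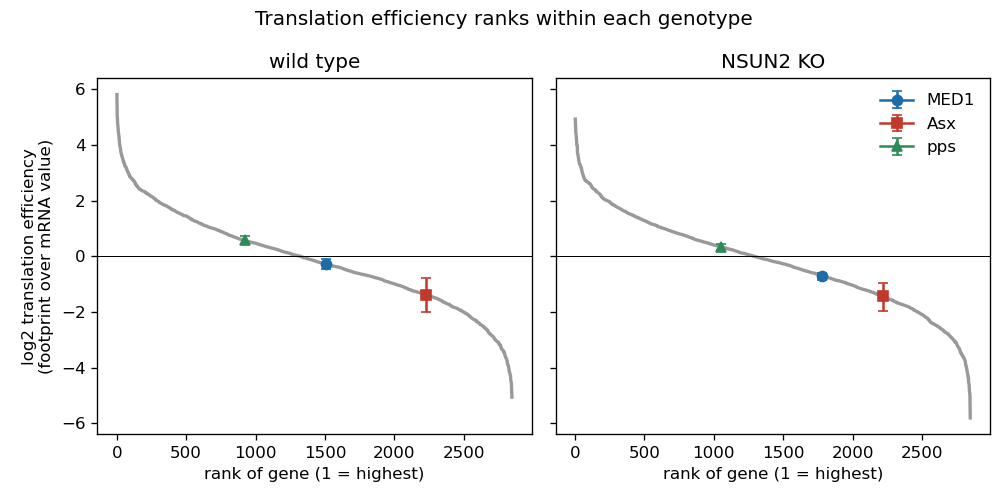
Log2 translation efficiency (footprint over mRNA value) of 2848 genes sorted from the highest, in wild type on the left and NSUN2 KO on the right, with MED1, Asx and pps marked and 95% counting intervals. The rank of MED1 goes from 1506 to 1783, that of pps from 922 to 1051 and that of Asx from 2230 to 2219.

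The translation efficiency of MED1 was 1.35-fold lower in the knockout (1.17 to 1.57, or 1.12 to 1.64 with the smallest mRNA reads) and that of pps 1.18-fold lower (1.04 to 1.34). The knockout over wild-type ratio of Asx was 0.957 with an interval from 0.548 to 1.67, or log2 -0.40 to 0.28 with the larger reads, so a difference in Asx was not detectable at this depth. No member was 2-fold apart, against 3.51% of 2848 genes higher by this size and 6.92% lower, 10.4% in all. Counting intervals lay below equality in 31.2% and above it in 21.2% of the 2554 of these genes with recovered reads. On the log2(value + 0.1) scale the differences were -0.44 for MED1, -0.24 for pps and -0.06 for Asx, beside a median of -0.06 and an SD of 0.64 over genes. Of the 2848 genes, 25.5% had a lower difference than MED1, 38.1% than pps and 50.2% than Asx. With median of ratios as scaling, the log2 interval of pps ran from -0.36 to 0.01 and held 0, and that of MED1, from -0.58 to -0.17, did not. MED1 and pps were not told apart by counting error, with a log2 distance for MED1 minus pps of -0.20 (-0.48 to 0.08). In MED1 and pps the mRNA value was higher in the knockout, and in MED1 the footprint value was also lower. The pps difference thus came mostly from its mRNA term, 0.26 against 0.02, and that of MED1 from both, 0.18 and -0.26.

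The tables list for each gene the highest m5C level found on it, a fraction that is the same in all 4 tables and has no stated sample, site or coverage. The level was 0.743 for pps, 0.412 for MED1 and 0.309 for Asx, all above the median of 0.269 over the 2860 genes. This placed pps at rank 284 from the highest, MED1 at rank 903 and Asx at rank 1256. Among the 283 genes that had an m5C level at or above that of pps and passed the minimum in both assays, pps included, the median log2 translation efficiency difference was -0.16, and 44.5% had a lower difference than pps. Among the 895 such genes at or above the level of MED1, the median was -0.12 and 29.2% lay below MED1. For the 1248 at or above the level of Asx, the median was -0.11 and 53.7% lay below Asx. Each larger set holds the smaller ones, and the median over all 2848 genes was -0.06. Whether the difference goes with the m5C level was not tested. Which of the m5C levels depend on NSUN2 is not given in the sources used here.

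**Figure D5:**
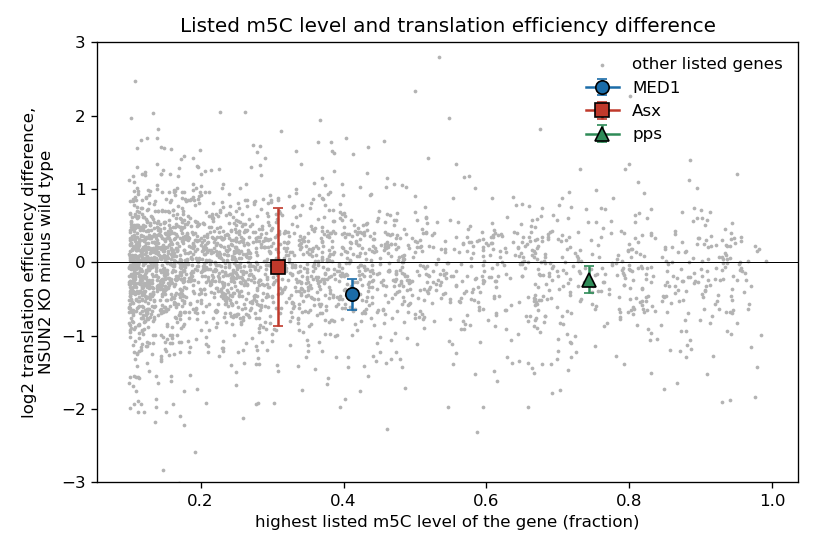
Highest listed m5C level of a gene (fraction, horizontal axis) against its log2 translation efficiency difference, NSUN2 KO minus wild type, for 2848 genes, of which 8 lie beyond the axis limit of 3; the 3 marked genes are drawn without a pseudocount and with 95% counting intervals. MED1 (0.412), Asx (0.309) and pps (0.743) lie within the spread of genes of similar m5C level.

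Genes whose values were most like those of each member were sought by Euclidean distance over the log2(value + 0.1) values of the 4 libraries. The 3 nearest to MED1 were FBgn0035266 at a distance of 0.13, Mau2, which helps to load cohesin onto DNA, at 0.17, and FBgn0034240 at 0.22, against a median distance of 2.56 to all genes. Mau2 had a wild-type mRNA value of 28.2 and a knockout value of 34.0, with footprint values of 26.6 and 21.4. FBgn0034240 likewise was higher in mRNA, 33.5 and 39.9, and lower in footprints, 24.2 and 21.2, in the knockout. The closest, FBgn0035266, had nearly equal mRNA values, 33.36 and 33.38, with footprint values of 26.4 and 22.1. All were picked by these same values, so a likeness to MED1 was built in. The nearest to Asx were FBgn0032154 at 0.08, FBgn0020245 at 0.15 and CG42271 at 0.25. The nearest to pps were FBgn0001990 at 0.13, FBgn0015477 at 0.20 and FBgn0035713 at 0.23. The m5C level of a near gene could be close to that of the member or far from it. FBgn0034240 had 0.418 against 0.412 for MED1. FBgn0032154, closest to Asx by this distance, had the highest m5C level of the table, 0.991, against 0.309 for Asx. Nearness here says only that the 4 values are close.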

How the data were processed

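Ribosome footprints and poly(A) mRNA of wild-type and NSUN2 KO ovaries were measured in 4 libraries, 1 per group. Per the labels' protocols, lysates were digested with micrococcal nuclease, the monosome fraction was taken, and a strand-keeping kit was used for mRNA. Per the submitters' processing notes, the tools TopHat2, HTSeq and cutadapt and the dm3 build are named, without roles. The sources used here do not give their versions, the annotation, or how the 2860 genes were selected. Expression values were deposited as a signal per gene that the authors scaled to depth and length, with the scale not named. The m5C level is a fraction, per the file headers the highest of the gene.

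Values were compared as log2(value + 0.1), in place of any count test, for genes with a mean of at least 1 in the assay, and a gene was called at 2-fold. No p-value was computed. Reads were recovered with numpy 2.4.6 by dividing, within an assay, the wild-type by the knockout value of each gene, since this equals 1 constant times the quotient of both read numbers. The constant leaving the smallest whole numbers over all genes was 2.01 for footprints and 2.58 for mRNA. Common factors were restored by requiring whole lengths, which worked for 97.7% of genes (footprints) and 91.2% (mRNA). Exon lengths were then required to be not below coding lengths. Genes whose read numbers without a common factor were too large to be sure of were left out. The recovered set can therefore lack deeply read genes, which have narrow counting intervals. Taking the smallest possible factor makes the reads lower limits, if the constants and the length rule hold, and the intervals too wide where it was larger. The procedure was tested on simulated data. Ratio intervals come from exact Clopper-Pearson limits on the knockout share of a gene's reads, value intervals are exact Poisson intervals, and those of translation efficiency sum the counting variances on the log scale (scipy 1.17.1). The 3 genes, the gene lists and the alternatives were chosen with earlier results of these data known. Named genes were the 3 members, list genes that could be paired, and the 3 nearest to each member. No protein or nucleotide sequence was used here.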

Additional observations from a re-analysis of the deposited data

How the results depend on the processing

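No paired analysis was possible because the groups hold 1 library apiece. Under other scalings and pseudocounts, the 45 recomputed differences of MED1, Asx and pps stayed within their counting intervals; the sign of pps in footprints turned to -0.06 with the sum of listed genes, and that of Asx in translation efficiency to 0.0022 with median of ratios. Scalings moved the median of all genes by at most 0.08, which is not small beside the medians themselves. With median of ratios, the median of footprints, -0.06 as deposited, came to -0.0007. That of translation efficiency, also -0.06 as deposited, came to -0.0024. Footprints then had 68 genes at least 2-fold higher and 132 lower. The log2 footprint interval of MED1 then ran from -0.399 to -0.0045, only just short of 0. Of 54 recomputed counts, 46 stayed within 1.5 times. A 1.5-fold rule lets in smaller differences: mRNA then had 171 genes higher and 163 lower against 49 and 46, footprints 251 and 434 against 56 and 154, and translation efficiency 309 and 521 against 100 and 197. With at least 50 recovered reads, which admits fewer genes, translation efficiency had 64 higher and 131 lower. Of 18 recomputed ranks, 17 stayed within their counting range. With a mean value of at least 5 in both assays, which ranks fewer genes, 34.2% lay below MED1 in knockout translation efficiency against 37.4%. Depth limits Asx most, with at least 21 and 31 footprint reads.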
